A study of Litchi chinensis with 30 samples.

Results

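Male flowers of litchi (Litchi chinensis, cultivar Feizixiao) at full bloom were compared with male flowers at the smallest bud stage, so that the comparison spans the whole measured course of male flower development. The groups were stage 5 of the male flower (M5, fully open) and stage 1 of the male flower (M1), each with 3 libraries, which together are 6 of the 30 libraries of the series. The members were chosen by the flower sex and stage given in the sample labels. The remaining libraries are male flowers at stages 2 to 4 (M2 and M3, larger closed buds, and M4, partly open flowers) and functionally female flowers at stages 1 to 5 (F1 to F5), again 3 libraries a group. Every library was made from whole flowers, and the labels name no treatment. According to the study's methods, material was taken in triplicate from several sides of the tree in the morning. No label says that the libraries of a group came from separate trees, so the p-values below measure only the spread between these samples, which may be technical.

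Male litchi flowers have no petals and carry stamens with viable pollen around a rudimentary pistil and a nectar disc. In an anther, meiosis gives the microspores, the tapetum feeds them and makes the sporopollenin of the pollen wall, and ripe pollen stores transcripts for the growth of the pollen tube, many of them for enzymes that modify pectin. Transcription factors of the MADS-box family set the identity of floral organs, and the B and C classes together specify stamens.

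Counts per library summed to between 27433038 and 36428418 in M5 and between 31627867 and 33602442 in M1. In M5 libraries, 23036 to 23402 genes had at least 10 counts, against 24265 to 24485 in M1 libraries, and the share of counts in the 10 top genes was 4.42% to 4.81% in M5 against 2.37% to 2.56% in M1. Log2 CPM (counts scaled to library size) correlated across tested genes at 0.955 to 0.957 between M5 libraries and at 0.953 to 0.954 between M1 libraries. The counts were scaled by TMM factors, which were 0.77 to 0.81 in M5 and 0.99 to 1.01 in M1. Every fold change is from this scaling and sets the bulk of the tested genes near no change, whereas the FPKM values (fragments scaled by transcript length and depth) are the authors' and do not hold the factor. A ratio of FPKM values therefore lies below the fitted fold change in this comparison. Expression of LcActin (LITCHI007623.m1.gene, annotated as Actin-7), the reference gene of the study, was 289, 255 and 279.7 FPKM in the M5 libraries and 181, 189 and 186 FPKM in the M1 libraries. Its change (log2 fold change 0.89 ± 0.07 SE, edgeR FDR 4.07e-11) was under the 2-fold limit for a call. Each SE of a log2 change given here was worked back from the F value of its test. The marker genes of the flower sexes separated M5 from F5 only in part. At full bloom LcMADS65 (AGAMOUS, C class) averaged 217 FPKM in M5 and 71.2 FPKM in F5, LcMADS75 (B class) 209 FPKM in M5 and 123 FPKM in F5, and LcMADS50 (B class) 188 FPKM in M5 and 62.7 FPKM in F5. LcMADS45 (B class) went against this, at 1.2 FPKM in M5 and 27.8 FPKM in F5. LcMADS51 (AGL11, an ovule gene in Arabidopsis) averaged 0.389 FPKM in M5 and 13 FPKM in F5. At stage 1, LcMADS65, LcMADS75 and LcMADS50 were close in the sexes, at 29.6, 58.9 and 185 FPKM in M1 and 33.3, 57.5 and 188 FPKM in F1. This holds for these 3 genes only, and M1 was not tested against F1.

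Of 27854 tested genes, 10243 (36.8%) were called. A call needed a false discovery rate (FDR) below 0.01 in edgeR together with a change of 2-fold or more. In M5, 4264 genes (15.3%) were higher and 5979 (21.5%) lower than in M1. Since whole flowers were sequenced, fewer cells of a type and less RNA per cell cannot be told apart in these values. The called genes had a median log2 fold change of 2.19 among those higher and -2.22 among those lower, and 1508 and 1965 of them changed at least 8-fold. For 213 of the genes called higher there was no count in any M1 library, and for 355 of those called lower there was none in any M5 library. The values of the 3 M5 libraries did not overlap those of the 3 M1 libraries for 10152 of the called genes, and for 69.8% of all tested genes, and every called gene whose values are printed below is of this kind. The split by direction depended on the scaling. With TMM factors the median log2 fold change of all tested genes was -0.08 and 41.6% of the calls were higher in M5, whereas with plain library-size scaling the median was -0.42 and 29.3% were higher (3174 higher, 7670 lower). All 3174 and 5979 of the 7670 were also called in that direction with TMM factors.

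Of the 6 most abundant annotated genes called higher in M5, 3 were below 1 FPKM in every M1 library. The sugar transporter NEC1 (LITCHI003451.m1.gene), named after a nectary gene of petunia, had 1672, 1468 and 1562 FPKM in the M5 libraries, and no count in any M1 library. Set against a limit of 3 counts over the M1 group, it was at least 97945-fold higher. Another entry annotated as NEC1 (LITCHI003452.m1.gene) had 52.4, 67.4 and 58.7 FPKM in M5 and no count in M1, at least 3120-fold higher. Both were absent from all M1 libraries, and how reads shared by similar copies were counted is not given in the sources used here. Beta-glucosidase 13 (LITCHI004342.m1.gene), of a family that releases sugar from glucosides, had 2941, 3344 and 3384 FPKM in the M5 libraries and 0.19, 0.0229 and 0.0317 FPKM in the M1 libraries. Its log2 fold change was 15.56 ± 1.27 (SE, edgeR FDR 2.38e-10). The cell wall invertase CWINV1 (LITCHI030803.m1.gene), which splits sucrose outside the cell, had 2084, 2434 and 2317 FPKM in the M5 libraries and 0.712, 0.833 and 0.776 FPKM in the M1 libraries, with a change of 11.84 ± 1.31 (SE, edgeR FDR 3.64e-08) on the log2 scale. For both enzymes every M1 library was below 1 FPKM.

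Salicylate carboxymethyltransferase (LITCHI006583.m1.gene), which makes the scent compound methyl salicylate, had 1229, 1341 and 1265 FPKM in the M5 libraries and 3.76, 3.02 and 4.07 FPKM in the M1 libraries. The log2 fold change was 8.79 ± 0.42 (SE, edgeR FDR 3.47e-14). UDP-glucose 6-dehydrogenase 1 (LITCHI023391.m1.gene), which supplies the uronic acid precursor of wall polysaccharides, had 1318, 1339.9 and 1331 FPKM in the M5 libraries and 52.4, 53.8 and 59.97 FPKM in the M1 libraries, and its change was 4.91 ± 0.28 (SE, edgeR FDR 4.27e-13). Polyubiquitin 10 (Litchi_chinensis_newGene_1612) was abundant at both stages, with 1244, 1336 and 1301 FPKM in the M5 libraries and 394, 387 and 430.2 FPKM in the M1 libraries (log2 fold change 2.01 ± 0.19 SE, edgeR FDR 2.34e-09). Among the other genes with the largest changes, 3 had no count in M1. The ubiquitin ligase ATL72 (LITCHI025188.m1.gene) had 139.6, 173 and 138 FPKM in M5 and was at least 5436-fold higher. A primary amine oxidase (LITCHI014772.m1.gene) had 45.1, 31 and 33.9 FPKM in M5 (at least 3480-fold higher). The lectin annotated as Agglutinin (LITCHI028507.m1.gene) had 66.1, 45.1 and 52.9 FPKM in M5 (at least 3206-fold higher). Each of these 3 genes was thus seen in every M5 library and in no M1 library.

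Genes that were lost by full bloom had moderate levels in the bud. A pair of entries annotated as alpha-farnesene synthase, an enzyme that makes a sesquiterpene, had no count in any M5 library. The M1 libraries had 12.3, 9.52 and 10.2 FPKM of LITCHI029162.m1.gene, which was at least 715-fold lower in M5, and 7.6, 9.61 and 10.1 FPKM of LITCHI029161.m1.gene, at least 611-fold lower. RICE SALT SENSITIVE 3 (LITCHI010926.m1.gene), a regulator of root cell elongation in rice, likewise had no count in M5 and 5.59, 4.52 and 4.59 FPKM in M1 (at least 260-fold lower in M5). Glutaredoxin-C8 (LITCHI028758.m1.gene) had 0, 0.0468 and 0 FPKM in the M5 libraries and 15.3, 13.9 and 12.6 FPKM in the M1 libraries, and its log2 fold change was -8.62 ± 0.81 (SE, edgeR FDR 2.71e-09). Alpha-copaene synthase (Litchi_chinensis_newGene_1578) had 0.0353, 0 and 0.0289 FPKM in the M5 libraries and 8.02, 9.42 and 7.82 FPKM in the M1 libraries, and its change was -8.28 ± 0.54 (SE, edgeR FDR 5.92e-12). An endo-1,3-beta-glucosidase (LITCHI028711.m1.gene), of the family that cuts callose, had 0, 0.0761 and 0.0302 FPKM in the M5 libraries and 15, 15.5 and 14.1 FPKM in the M1 libraries (log2 fold change -7.90 ± 0.64 SE, edgeR FDR 2.07e-10). For each of these 6 genes every M5 value was far below the lowest M1 value, and the rule that named them required groups without overlap.

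The most abundant of the genes called lower kept clear levels at full bloom. Tetraspanin-8 (LITCHI015985.m1.gene), a membrane protein, had 509, 553 and 536 FPKM in the M5 libraries and 1726, 1751 and 1811 FPKM in the M1 libraries, with a change of -1.40 ± 0.17 (SE, edgeR FDR 2.52e-07). Chalcone synthase 2 (LITCHI015108.m1.gene), the entry enzyme of flavonoid synthesis, had 81.3, 63.5 and 75.6 FPKM in the M5 libraries and 1291, 1323 and 1350.3 FPKM in the M1 libraries. Its log2 fold change was -3.84 ± 0.21 (SE, edgeR FDR 2.09e-13). The calcium-binding protein CML27 (LITCHI023087.m1.gene) averaged 148 ± 16.3 FPKM in M5 and 685 ± 19.8 FPKM in M1 (SD, n = 3 each, log2 fold change -1.88 ± 0.28 SE, edgeR FDR 3.33e-06). ALP1-like (LITCHI017585.m1.gene) averaged 70.8 ± 8.53 FPKM in M5 and 647 ± 26.3 FPKM in M1 (SD, n = 3 each, log2 fold change -2.87 ± 0.25 SE, edgeR FDR 5.46e-10). ZAT10 (LITCHI001463.m1.gene), a stress-responsive zinc finger protein, averaged 198 ± 8.34 FPKM in M5 and 565 ± 6.73 FPKM in M1 (SD, n = 3 each), and its change of -1.18 ± 0.29 (SE, edgeR FDR 0.000921) was no longer called against M2 (-0.40, FDR 0.224). A small subunit of Rubisco (LITCHI008481.m1.gene) averaged 94.8 ± 2.04 FPKM in M5 and 513 ± 9.35 FPKM in M1 (SD, n = 3 each, log2 fold change -2.11 ± 0.15 SE, edgeR FDR 1.4e-11).

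**Figure D1:**
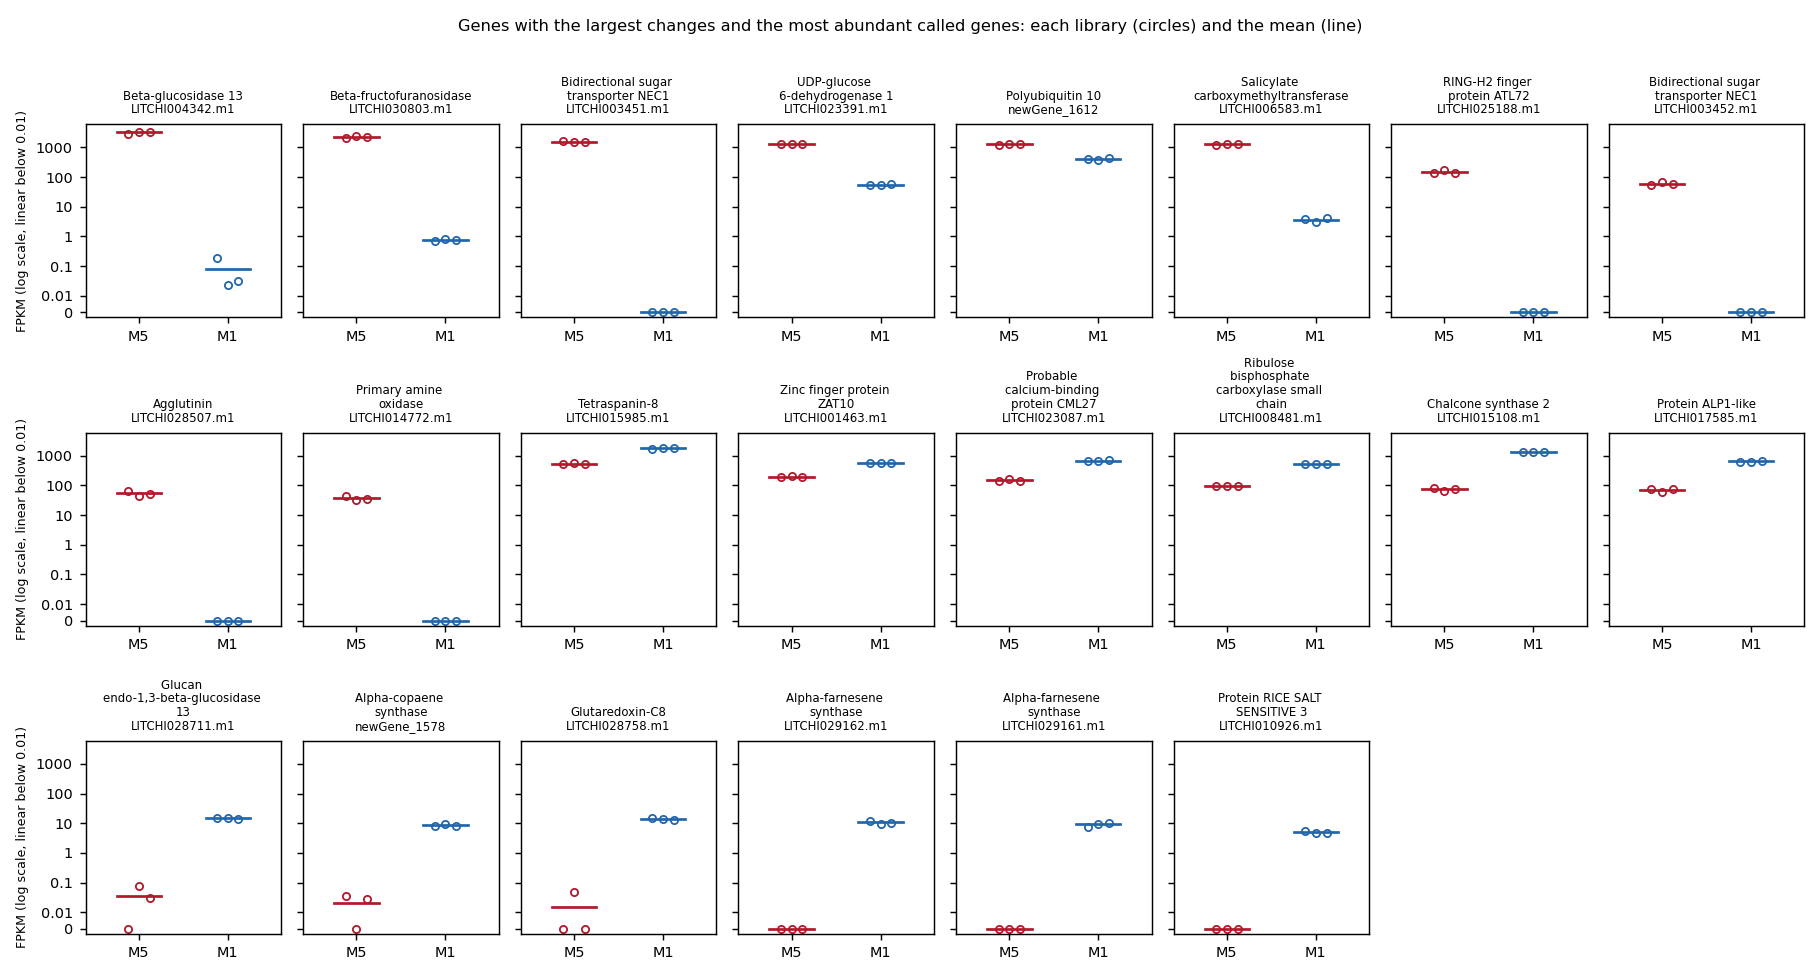
FPKM on a log axis (linear below 0.01) of the 22 genes with the largest changes or the highest levels among called genes, with the 3 M5 libraries in red and the 3 M1 libraries in blue, circles for libraries and lines for means. In each panel the libraries of M5 and M1 stand apart, which the choice required of the genes with the largest changes. At 0 sit 5 genes in every M1 library and 3 in every M5 library.

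Gene lists drawn from the Swiss-Prot annotation were then described by how many of their tested members were called, to be read against 15.3% higher and 21.5% lower over all tested genes. Among the 47 lists, pollen tube genes, pectinesterase inhibitors, and polygalacturonases and pectate lyases had the largest shares of members called higher. In the list of pollen tube receptors and peptides, 18 of 28 tested members were called higher and 6 lower in M5, with a median log2 fold change of 3.49 (3.02 with the gene that had no count in a group set at its limit). LAT52 (LITCHI013059.m1.gene), a pollen protein needed for tube growth in tomato, had 196, 138 and 202 FPKM in the M5 libraries and 10.6, 9.37 and 24 FPKM in the M1 libraries, with a change of 3.93 ± 0.45 (SE, edgeR FDR 5.49e-08) on the log2 scale. The member called lower with the highest level was Pollen-specific protein C13 (LITCHI010442.m1.gene), at 123 ± 8.69 FPKM in M5 and 345 ± 4.44 FPKM in M1 (SD, n = 3 each, log2 fold change -1.16 ± 0.12 SE, edgeR FDR 1.6e-08), which is named for a maize pollen protein but was high in every bud library here.

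Among pectinesterases, which remove methyl groups from pectin, 16 of 42 tested members were called higher and 7 lower in M5, with a median log2 fold change of 0.87. Pectinesterase 50 (LITCHI020207.m1.gene) had 343, 251 and 378 FPKM in the M5 libraries and 10.6, 9.75 and 27.3 FPKM in the M1 libraries (log2 fold change 4.67 ± 0.62 SE, edgeR FDR 1.01e-06). Pectinesterase 68 (LITCHI022790.m1.gene) was lower, with 1.33, 0.662 and 0.865 FPKM in the M5 libraries and 10.7, 13.1 and 9.66 FPKM in the M1 libraries (log2 fold change -3.23 ± 0.27 SE, edgeR FDR 3.53e-10). Pectinesterase inhibitors, which block these enzymes, also had more members called higher than lower: 12 of 20 tested members were called higher and 3 lower in M5, with a median log2 fold change of 3.26 (3.15 with members at 0 in a group set at their limit). Inhibitor 9 (LITCHI022837.m1.gene) had 255, 283 and 264 FPKM in the M5 libraries and 3.85, 3.67 and 3.56 FPKM in the M1 libraries (log2 fold change 6.51 ± 0.41 SE, edgeR FDR 2.46e-12), and Inhibitor 3 (LITCHI017488.m1.gene) averaged 5.65 ± 1.44 FPKM in M5 and 35.4 ± 1.8 FPKM in M1 (SD, n = 3 each, log2 fold change -2.32 ± 0.17 SE, edgeR FDR 2.77e-11). Of polygalacturonases and pectate lyases, which cut the pectin chain, 33 of 62 tested members were called higher and 13 lower in M5, with a median log2 fold change of 2.09. The most abundant was a polygalacturonase (Litchi_chinensis_newGene_6124) with 492, 339 and 399 FPKM in the M5 libraries and 25.1, 25.7 and 55.7 FPKM in the M1 libraries (log2 fold change 3.86 ± 0.55 SE, edgeR FDR 1.56e-06). Pectate lyase 13 (LITCHI027260.m1.gene), 1 of 2 entries of its locus, averaged 7.08 ± 1.52 FPKM in M5 and 31.5 ± 3.5 FPKM in M1 (SD, n = 3 each, log2 fold change -1.83 ± 0.21 SE, edgeR FDR 6.45e-08). With the entries of its locus summed, the change was -1.78.

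Some of the genes called higher, among them pollen and pectin genes, were higher in stage 1 than in stage 2 libraries, so that the size of their change depends on the stage taken as the start. LAT52 was at 14.7, 0.226, 7.75, 199.9 and 179 FPKM in M1 to M5, and the polygalacturonase was at 35.5, 0.104, 9.62, 379 and 410.1 FPKM. Chosen after these values were seen, 306 tested genes had at least 1 CPM in M1 and at least 4 times their M2 level, and 128 of them were called higher in M5 (3.00% of those called higher) against 7 called lower. The summed CPM of the 128 genes was 654, 584 and 1354 in the M1 libraries, 31.9, 36.1 and 31.9 in M2, 687, 543 and 449 in M3, 11827, 15664 and 18625 in M4, and 31749, 30877 and 35429 in M5. M1 replicate 3 held the highest M1 value for 122 of the 128 genes, and their M1 level was at the median 5.81% of that in M5. In female flowers the same genes summed to 342, 403 and 330 CPM in F1 and to 30.4, 32.4 and 52.4 CPM in F2. Their median log2 fold change was 4.10 against M1 and 9.64 against M2, an order that the choice of the genes fixes. The choice also fixes that the male sums are higher in M1 than in M2 and higher in M5 than in M1. Of the members called higher, 6 of 18 in the list of pollen tube receptors and peptides, 5 of 33 among polygalacturonases and pectate lyases and 4 of 16 among pectinesterases are in this set. The list of pollen tube receptors and peptides had 18 members higher and 6 lower against either stage, and the list of polygalacturonases and pectate lyases had 31 higher and 14 lower against M2. Of the named genes, 6 belong to the set, LAT52 (LITCHI013059.m1.gene), the polygalacturonase (Litchi_chinensis_newGene_6124), Pectinesterase 50 (LITCHI020207.m1.gene), Late embryogenesis abundant protein 1 (LITCHI015173.m1.gene), Myb-related protein 305 (LITCHI020546.m1.gene) and CWINV1 (LITCHI030803.m1.gene). Without M1 replicate 3 their log2 fold changes were, in this order, 4.54, 4.40, 5.37, 3.98, 8.02 and 11.90, and all 6 kept their call. Against M2 they were 9.94, 12.26, 12.56, 9.26, 12.97 and 15.27. Without M1 replicate 3, 9950 genes were called in all. Whether tissue of more advanced flowers was present in the stage 1 samples was not tested. The M1 levels of these genes, and the folds set against them, are to be read with that limit.

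**Figure D2:**
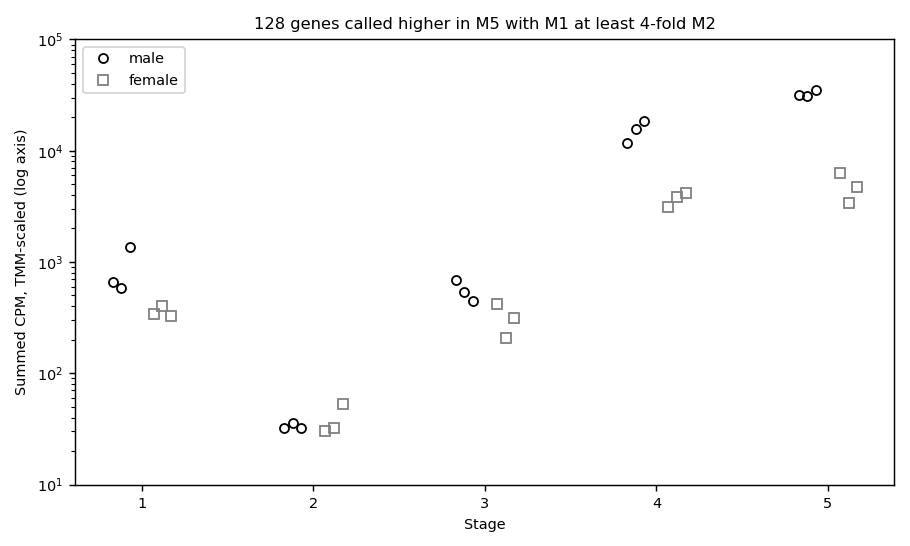
Summed TMM-scaled CPM (log axis) of the 128 genes that were called higher in M5 and were at least 4-fold higher in M1 than in M2, for each male (black circles) and female (grey squares) library at stages 1 to 5. The male libraries lie at 584 to 1354 CPM at stage 1, 31.9 to 36.1 CPM at stage 2 and 30877 to 35429 CPM at stage 5.

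Other wall genes split by family. Of expansins, which loosen walls during growth, 12 of 29 tested members were called higher and 4 lower in M5, with a median log2 fold change of 0.63. Expansin-A8 (LITCHI027598.m1.gene) had 287, 255 and 261 FPKM in the M5 libraries and 3.5, 1.73 and 3.52 FPKM in the M1 libraries (log2 fold change 6.84 ± 0.52 SE, edgeR FDR 7.18e-11), and Expansin-A2 (LITCHI018039.m1.gene) averaged 0.76 ± 0.0562 FPKM in M5 and 106 ± 5.14 FPKM in M1 (SD, n = 3 each, log2 fold change -6.78 ± 0.24 SE, edgeR FDR 5.55e-16). These genes were named as the most abundant member called in each direction, so their opposite directions follow from that choice. The groups did not overlap for either gene. Among xyloglucan endotransglucosylases, which cut and rejoin xyloglucan, 5 of 26 tested members were called higher and 11 lower in M5, with a median log2 fold change of -0.13. The abundant XTH6 (LITCHI007126.m1.gene) averaged 215 ± 30.9 FPKM in M5 and 19.7 ± 1.31 FPKM in M1 (SD, n = 3 each, log2 fold change 3.77 ± 0.26 SE, edgeR FDR 1.1e-11), and XTH9 (LITCHI021181.m1.gene) averaged 19.7 ± 0.673 FPKM in M5 and 272 ± 17.5 FPKM in M1 (SD, n = 3 each, log2 fold change -3.46 ± 0.18 SE, edgeR FDR 1.9e-13). For arabinogalactan proteins, wall glycoproteins of the cell surface, 6 of 30 tested members were called higher and 10 lower in M5, with a median log2 fold change of -0.27. Fasciclin-like protein 6 (LITCHI020982.m1.gene) had 546, 604 and 561 FPKM in the M5 libraries and 8.17, 8.3 and 8.81 FPKM in the M1 libraries (log2 fold change 6.41 ± 0.32 SE, edgeR FDR 8.33e-14), and fasciclin-like protein 17 (LITCHI019008.m1.gene) averaged 12.5 ± 1.01 FPKM in M5 and 54.2 ± 0.995 FPKM in M1 (SD, n = 3 each, log2 fold change -1.78 ± 0.12 SE, edgeR FDR 1.34e-11). Among cellulose and callose synthases, 10 of 59 tested members were called higher and 11 lower in M5, with a median log2 fold change of -0.44, and 17 were lower with library-size scaling.

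Signalling and transport lists linked to tip growth had calls in both directions. In the ROP GTPase module, whose small GTPases set the growing tip, 3 of 44 tested members were called higher and 19 lower in M5, with a median log2 fold change of -0.48. Among exocyst subunits, which tether vesicles at the membrane, 10 of 41 tested members were called higher and 4 lower in M5, with a median log2 fold change of 0.37, and with library-size scaling the counts were 6 higher and 6 lower. Among actin-binding proteins, 13 of 45 tested members were called higher and 10 lower in M5, with a median log2 fold change of 0.27, against 8 higher and 13 lower with library-size scaling, so that the larger side there depends on the scaling. Of calcium sensors and kinases, 35 of 142 tested members were called higher and 29 lower in M5, with a median log2 fold change of 0.12, and library-size scaling again turned the larger side (27 higher and 36 lower). CBL-interacting protein kinase 2 (LITCHI027467.m1.gene), which relays calcium signals to transporters, had 215, 282 and 252 FPKM in the M5 libraries and 5.83, 6.16 and 6.58 FPKM in the M1 libraries (log2 fold change 5.66 ± 0.31 SE, edgeR FDR 3.41e-13). For cyclic nucleotide-gated and glutamate receptor channels, 10 of 71 tested members were called higher and 25 lower in M5, with a median log2 fold change of -0.91. For potassium channels and cation/proton exchangers, 29 of 91 tested members were called higher and 17 lower in M5, with a median log2 fold change of 0.70. Of aquaporins, the water channels, 13 of 39 tested members were called higher and 7 lower in M5, with a median log2 fold change of 0.23. TIP2-1 (LITCHI030525.m1.gene) of the vacuole membrane averaged 531 ± 44.7 FPKM in M5 and 87.7 ± 1.35 FPKM in M1 (SD, n = 3 each, log2 fold change 2.93 ± 0.17 SE, edgeR FDR 4.84e-13), and PIP2-7 (LITCHI002040.m1.gene) of the plasma membrane averaged 48.8 ± 5.17 FPKM in M5 and 252 ± 1.18 FPKM in M1 (SD, n = 3 each, log2 fold change -2.04 ± 0.14 SE, edgeR FDR 1.65e-11).

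Sugar transporters, invertases and the respiratory chain each had more members called higher than lower. Of sugar transporters, 26 of 59 tested members were called higher and 8 lower in M5, with a median log2 fold change of 1.41. SWEET1 (LITCHI011333.m1.gene), which moves sugar through membranes in either direction, had 231, 214 and 211 FPKM in the M5 libraries and 19.99, 21.4 and 23.9 FPKM in the M1 libraries (log2 fold change 3.66 ± 0.18 SE, edgeR FDR 4.46e-14), and Sugar transport protein 13 (LITCHI014765.m1.gene), a hexose importer, had 29.9, 54.7 and 44.3 FPKM in the M5 libraries and 200.2, 196 and 211 FPKM in the M1 libraries (log2 fold change -1.90 ± 0.37 SE, edgeR FDR 0.000102). Among invertases and sucrose synthases, 10 of 31 tested members were called higher and 3 lower in M5, with a median log2 fold change of 0.29. The summed level of this list was 977, 1002, 1046, 1959 and 3853 FPKM in M1 to M5, and CWINV1 alone made up 2278 FPKM of the M5 sum. A neutral invertase (LITCHI014297.m1.gene) averaged 44.7 ± 3.53 FPKM in M5 and 197 ± 6.85 FPKM in M1 (SD, n = 3 each, log2 fold change -1.81 ± 0.22 SE, edgeR FDR 1.36e-07). In the mitochondrial respiratory chain, 21 of 63 tested members were called higher and 0 lower in M5, with a median log2 fold change of 0.76. The count of 0 lower is from edgeR, with 3 at an unadjusted p under 0.05 and 1 called by DESeq2. Library-size scaling left 8 higher and 1 lower. ATP synthase subunit beta (LITCHI005708.m1.gene) had 275, 261 and 296 FPKM in the M5 libraries and 159, 163 and 174 FPKM in the M1 libraries (log2 fold change 1.07 ± 0.10 SE, edgeR FDR 9.92e-10) and was under the 2-fold limit with library-size scaling (0.73) and against M2 (0.85). Among starch genes, 13 of 67 tested members were called higher and 17 lower in M5, with a median log2 fold change of -0.06, and among fermentation enzymes, 6 of 21 tested members were called higher and 7 lower in M5, with a median log2 fold change of -0.18.

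Lists of the dividing cell had many more members called lower than higher. Of DNA replication genes, 0 of 44 tested members were called higher and 24 lower in M5, with a median log2 fold change of -1.40. Replication factor C subunit 4 (LITCHI011282.m1.gene), of the clamp loader, had 4.04, 2.73 and 3.75 FPKM in the M5 libraries and 33.6, 33.1 and 31.9 FPKM in the M1 libraries (log2 fold change -2.90 ± 0.14 SE, edgeR FDR 4.29e-14). Of core histones, 0 of 32 tested members were called higher and 18 lower in M5, with a median log2 fold change of -1.55, and their summed level was 3085, 2546, 2159, 1339 and 963 FPKM in M1 to M5. Histone H2A.6 (LITCHI024849.m1.gene) had 40.3, 31.6 and 33.8 FPKM in the M5 libraries and 341, 339 and 329 FPKM in the M1 libraries (log2 fold change -2.93 ± 0.20 SE, edgeR FDR 1.56e-11). The counts of 0 higher in both lists are from edgeR, with 1 gene in each at an unadjusted p under 0.05, and DESeq2 called 1 and 0. Among kinesins and spindle proteins, 7 of 115 tested members were called higher and 64 lower in M5, with a median log2 fold change of -1.52. The microtubule bundling protein MAP65-1 (LITCHI013881.m1.gene) had 8.68, 7.97 and 9.25 FPKM in the M5 libraries and 76.9, 81.1 and 79.3 FPKM in the M1 libraries (log2 fold change -2.87 ± 0.13 SE, edgeR FDR 1.46e-14), and the highest member called higher was KINESIN LIGHT CHAIN-RELATED 1 (LITCHI021882.m1.gene, 85.1 ± 3.69 FPKM in M5 and 26.3 ± 1.69 FPKM in M1 (SD, n = 3 each), log2 fold change 2.03 ± 0.12 (SE, edgeR FDR 8.96e-13)). Of cyclins and cyclin-dependent kinases, 3 of 49 tested members were called higher and 20 lower in M5, with a median log2 fold change of -1.001. The mitotic kinase CDKB2-2 (LITCHI009863.m1.gene) had 5.64, 4.25 and 4.37 FPKM in the M5 libraries and 72.6, 82.2 and 69.2 FPKM in the M1 libraries (log2 fold change -3.65 ± 0.18 SE, edgeR FDR 4.61e-14), while CDKF-1 (LITCHI016781.m1.gene) averaged 7.99 ± 0.674 FPKM in M5 and 3.12 ± 0.47 FPKM in M1 (SD, n = 3 each, log2 fold change 1.69 ± 0.19 SE, edgeR FDR 5.72e-08). Few cytosolic ribosomal protein genes passed the test, as 5 of 205 tested members were called higher and 9 lower in M5, with a median log2 fold change of -0.01, against 1 higher and 16 lower with library-size scaling.

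Meiosis and tapetum genes act early in the anther, and for the tapetum genes the result depended on the stage taken as the start. Of meiosis genes, 0 of 23 tested members were called higher and 8 lower in M5, with a median log2 fold change of -1.42. The count of 0 higher is from edgeR, with 3 at an unadjusted p under 0.05 and 0 called by DESeq2. Meiotic nuclear division protein 1 (LITCHI017695.m2.gene), 1 of 2 entries of its locus, had 1.3, 0.709 and 1.37 FPKM in the M5 libraries and 9.04, 11.6 and 11.2 FPKM in the M1 libraries (log2 fold change -2.91 ± 0.31 SE, edgeR FDR 2.07e-08), and -2.88 with the entries summed. Of tapetum and sporopollenin genes, 7 of 32 tested members were called higher and 5 lower in M5, with a median log2 fold change of 0.31. Their summed level was 172, 1532, 774, 252 and 145 FPKM in M1 to M5 and was thus highest at M2. Against M2 in place of M1, 1 member was called higher and 21 lower in M5, and with library-size scaling 4 were higher and 8 lower against M1. Tetraketide alpha-pyrone reductase 1 (LITCHI004425.m1.gene), a sporopollenin enzyme, had 4.66, 5.21 and 5.59 FPKM in the M5 libraries and 33, 30.7 and 28.6 FPKM in the M1 libraries (log2 fold change -2.24 ± 0.11 SE, edgeR FDR 9.44e-14), and STRICTOSIDINE SYNTHASE-LIKE 10 (LITCHI005416.m1.gene) averaged 30.7 ± 2.92 FPKM in M5 and 8.81 ± 0.171 FPKM in M1 (SD, n = 3 each, log2 fold change 2.13 ± 0.25 SE, edgeR FDR 8.81e-08).

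**Figure D3:**
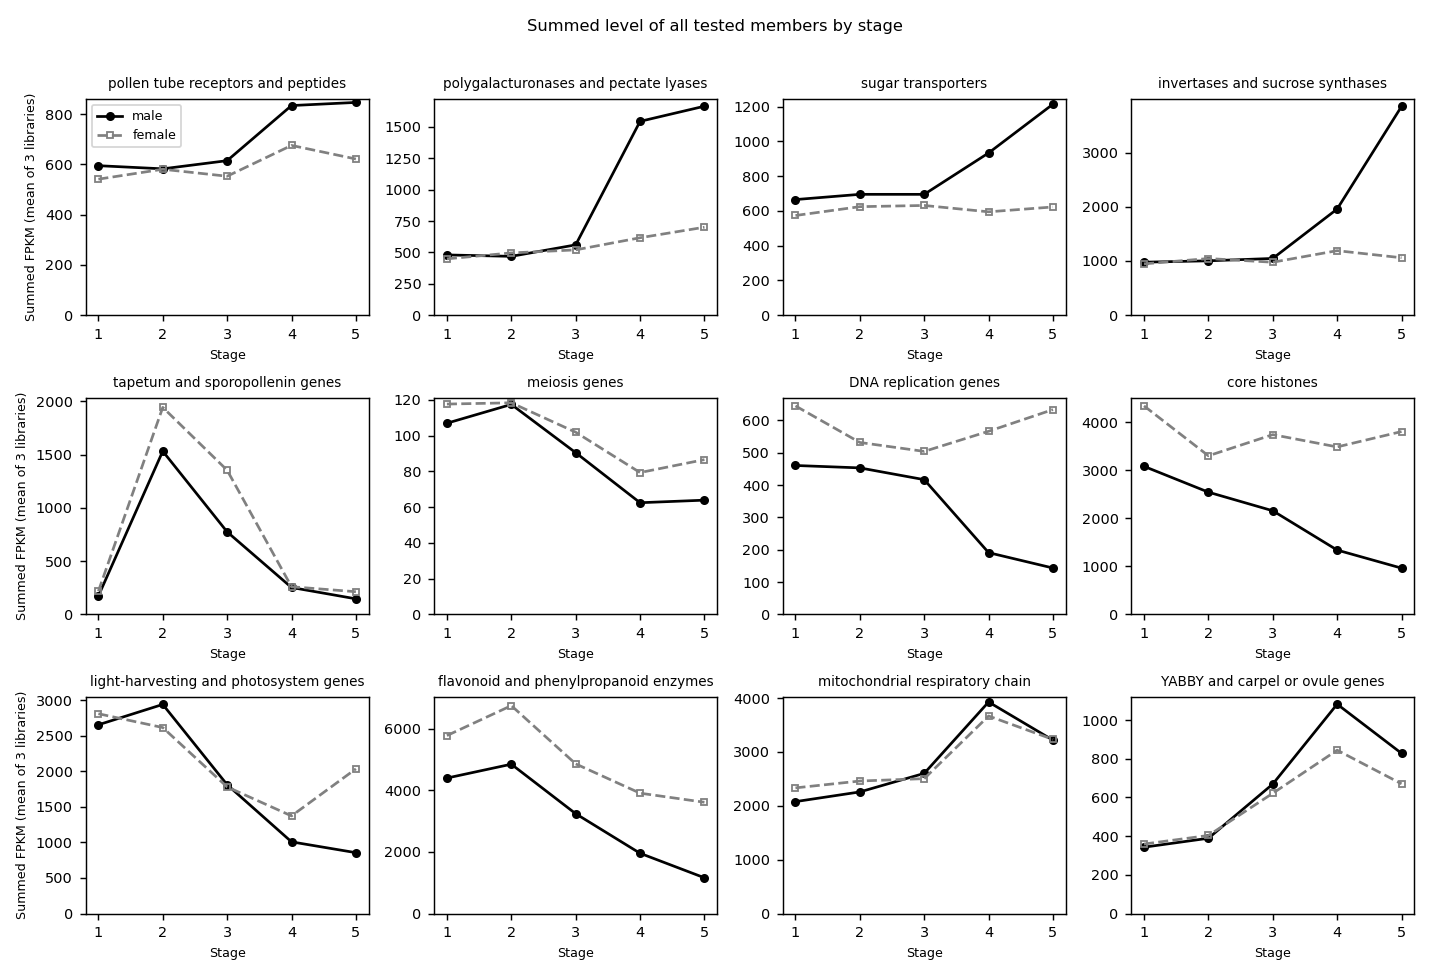
Summed FPKM (mean of 3 libraries) of all tested members of 12 lists at stages 1 to 5, with male flowers as black circles and female flowers as grey squares, each axis from 0. In male flowers the tapetum list is highest at stage 2 (1532 FPKM), the invertase list at stage 5 (3853 FPKM), and the core histone list falls at every step to 963 FPKM.

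Photosynthesis genes had the largest share of members called lower among the 47 lists. The list of light-harvesting and photosystem genes, which mark green tissue, also holds small subunits of Rubisco. In it, 3 of 54 tested members were called higher and 38 lower in M5, with a median log2 fold change of -2.43. The summed level of the list was 856 FPKM in M5 and 2656 FPKM in M1. A different Rubisco small subunit (LITCHI016391.m1.gene) was an exception, with 328, 304 and 289.7 FPKM in the M5 libraries and 146, 153 and 149 FPKM in the M1 libraries (log2 fold change 1.37 ± 0.11 SE, edgeR FDR 1.27e-10). The 2 small subunit genes named here moved in opposite directions, each being the most abundant list member called in its direction. Of flavonoid and phenylpropanoid enzymes, 16 of 77 tested members were called higher and 31 lower in M5, with a median log2 fold change of -0.90, and the summed level was 4397, 4846, 3240.1, 1956 and 1160.4 FPKM in M1 to M5. An anthocyanidin reductase (LITCHI026909.m1.gene) was called higher, with 83.9, 51.8 and 59.95 FPKM in the M5 libraries and 0.456, 0.195 and 0.172 FPKM in the M1 libraries (log2 fold change 8.19 ± 0.49 SE, edgeR FDR 1.26e-12). Of terpene synthases, 10 of 47 tested members were called higher and 23 lower in M5, with a median log2 fold change of -4.76 (-2.75 with the 21 members at 0 in a group set at their limit). Their sum was nonetheless 591 FPKM in M5 and 234 FPKM in M1, since a limonene synthase (LITCHI029391.m8.gene), which makes a scent monoterpene, had 319, 408 and 381 FPKM in the M5 libraries and 0.729, 0.954 and 0.247 FPKM in the M1 libraries. Its log2 fold change was 9.49 ± 0.40 (SE, edgeR FDR 4.94e-15), and 9.14 with the 3 entries of its locus summed. A germacrene D synthase (Litchi_chinensis_newGene_1755) averaged 16.2 ± 1.11 FPKM in M5 and 68.2 ± 4.23 FPKM in M1 (SD, n = 3 each, log2 fold change -1.79 ± 0.24 SE, edgeR FDR 9.61e-07). Of lipid-transfer, GDSL lipase and wax genes, 32 of 150 tested members were called higher and 34 lower in M5, with a median log2 fold change of -0.06. A lipid-transfer protein (LITCHI018043.m1.gene) averaged 581 ± 63 FPKM in M5 and 62.3 ± 18.7 FPKM in M1 (SD, n = 3 each, log2 fold change 3.55 ± 0.39 SE, edgeR FDR 3.15e-08), and a pEARLI1-like protein (LITCHI019183.m1.gene) averaged 79.2 ± 19.8 FPKM in M5 and 265 ± 8.39 FPKM in M1 (SD, n = 3 each, log2 fold change -1.42 ± 0.13 SE, edgeR FDR 2.36e-09).

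**Figure D4:**
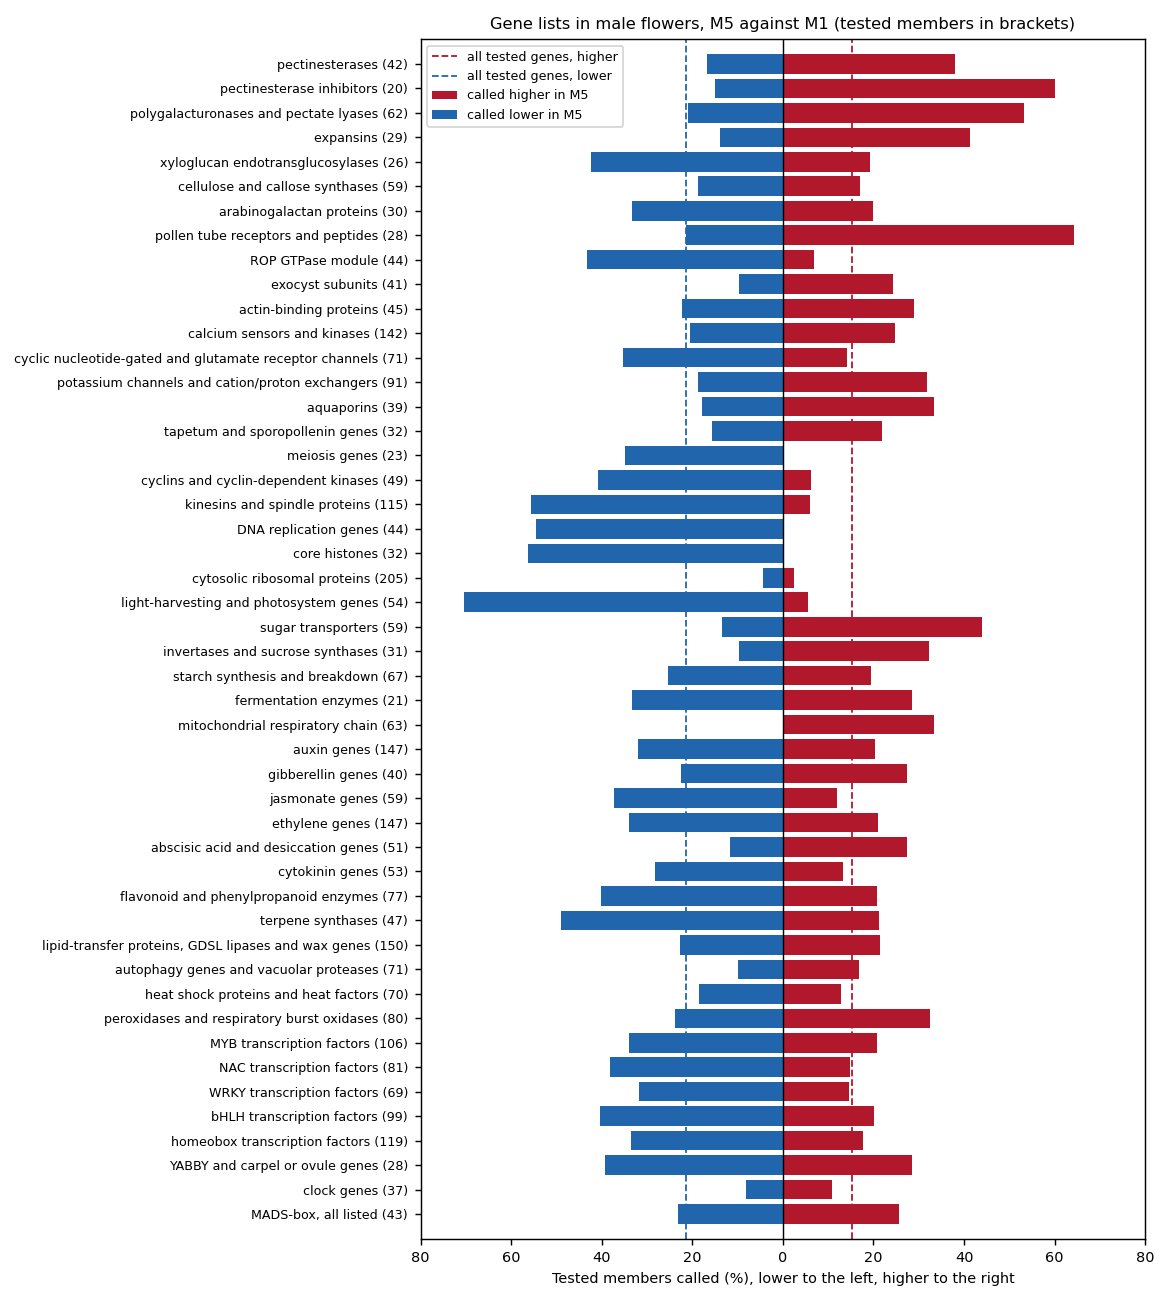
Share (%) of the tested members of 47 annotation lists and of the listed MADS-box genes that were called higher (red, right) or lower (blue, left) in M5 against M1, with the number tested in brackets. Dashed lines mark 15.3% and 21.5% over all tested genes. Pollen tube receptors and peptides reach 64.3% higher, and light-harvesting and photosystem genes 70.4% lower.

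Hormone lists held calls in both directions. Of auxin genes, 30 of 147 tested members were called higher and 47 lower in M5, with a median log2 fold change of -0.41. The Aux/IAA gene AUX28 (LITCHI026127.m1.gene), of a family of auxin response repressors, had 267, 272 and 247 FPKM in the M5 libraries and 20.9, 18.6 and 25.1 FPKM in the M1 libraries (log2 fold change 3.93 ± 0.17 SE, edgeR FDR 9.29e-15). GH3.1 (LITCHI001495.m1.gene), which couples auxin to amino acids, had 45.9, 66.5 and 57.5 FPKM in the M5 libraries and 246, 273 and 254 FPKM in the M1 libraries (log2 fold change -1.85 ± 0.29 SE, edgeR FDR 5.79e-06). Of jasmonate genes, 7 of 59 tested members were called higher and 22 lower in M5, with a median log2 fold change of -0.22. 12-oxophytodienoate reductase 2 (LITCHI011713.m1.gene) had 136, 134 and 131 FPKM in the M5 libraries and 2.86, 2.3 and 3.6 FPKM in the M1 libraries (log2 fold change 5.84 ± 0.26 SE, edgeR FDR 1.17e-14), and the lipoxygenase LOX3-1 (LITCHI030220.m1.gene), whose class starts jasmonate synthesis, had 42.6, 64.8 and 53.9 FPKM in the M5 libraries and 264, 272 and 268 FPKM in the M1 libraries (log2 fold change -1.99 ± 0.23 SE, edgeR FDR 6.19e-08). These enzymes were named as the most abundant member called in each direction, so their opposite directions follow from that choice. Of ethylene genes, 31 of 147 tested members were called higher and 50 lower in M5, with a median log2 fold change of -0.41. ACC oxidase homolog 3 (LITCHI005854.m1.gene), named for its likeness to the last enzyme of ethylene synthesis, averaged 503 ± 57.8 FPKM in M5 and 182 ± 27.6 FPKM in M1 (SD, n = 3 each, log2 fold change 1.80 ± 0.29 SE, edgeR FDR 9.63e-06), and the response factor ERF4 (LITCHI029145.m1.gene) averaged 27.2 ± 8.11 FPKM in M5 and 401 ± 6.48 FPKM in M1 (SD, n = 3 each, log2 fold change -3.56 ± 0.26 SE, edgeR FDR 4.9e-11).

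Of abscisic acid and desiccation genes, 14 of 51 tested members were called higher and 6 lower in M5, with a median log2 fold change of 0.05, which was -0.28 with library-size scaling. NCED1 (LITCHI012579.m1.gene), the rate-limiting enzyme of abscisic acid synthesis, had 6.99, 6.8 and 8.22 FPKM in the M5 libraries and 151, 159 and 163 FPKM in the M1 libraries (log2 fold change -4.10 ± 0.29 SE, edgeR FDR 2.69e-11). Late embryogenesis abundant protein 1 (LITCHI015173.m1.gene), of a family that protects drying cells such as pollen, had 452, 352 and 437 FPKM in the M5 libraries and 38.1, 30.2 and 66.3 FPKM in the M1 libraries (log2 fold change 3.53 ± 0.36 SE, edgeR FDR 8.51e-09). It is among the genes with more counts in M1 than in M2, at 44.9, 0.832, 32.6, 482 and 414 FPKM in M1 to M5. For gibberellin genes, 11 of 40 tested members were called higher and 9 lower in M5, with a median log2 fold change of 0.87, and library-size scaling left 10 higher and 11 lower, which turned the larger side. For cytokinin genes, 7 of 53 tested members were called higher and 15 lower in M5, with a median log2 fold change of -0.36. Of lists of cell upkeep, the counts were 12 higher and 7 lower of 71 (median 0.25) for autophagy genes and vacuolar proteases, 9 higher and 13 lower of 70 (median 0.02) for heat shock proteins and heat factors, and 4 higher and 3 lower of 37 (median 0.06) for clock genes. With library-size scaling the lower counts of these 3 lists were 14, 23 and 7, which made lower the larger side for autophagy and clock genes. For peroxidases and respiratory burst oxidases, 26 of 80 tested members were called higher and 19 lower in M5, with a median log2 fold change of -0.26, and with library-size scaling 23 higher and 24 lower.

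In the MYB, NAC, bHLH, homeobox and WRKY families of transcription factors, more members were called lower than higher. For MYB factors, 22 of 106 tested members were called higher and 36 lower in M5, with a median log2 fold change of -0.62. Myb-related protein 305 (LITCHI020546.m1.gene), a flower regulator of nectary and phenylpropanoid genes in snapdragon and tobacco, had 624, 619 and 559 FPKM in the M5 libraries and 3.16, 2.86 and 7.35 FPKM in the M1 libraries (log2 fold change 7.40 ± 0.78 SE, edgeR FDR 1.78e-08). MYB77 (LITCHI011086.m1.gene), a partner of auxin response factors in Arabidopsis, had 2.86, 2.01 and 2.95 FPKM in the M5 libraries and 89.2, 87.2 and 78.2 FPKM in the M1 libraries (log2 fold change -4.69 ± 0.31 SE, edgeR FDR 4.99e-12). For NAC factors, 12 of 81 tested members were called higher and 31 lower in M5, with a median log2 fold change of -0.63. NAC100 (LITCHI019504.m1.gene) averaged 158 ± 17.1 FPKM in M5 and 16.7 ± 1.97 FPKM in M1 (SD, n = 3 each, log2 fold change 3.57 ± 0.53 SE, edgeR FDR 3.04e-06), and NAC83 (LITCHI020796.m1.gene) averaged 16.1 ± 0.633 FPKM in M5 and 130.3 ± 1.42 FPKM in M1 (SD, n = 3 each, log2 fold change -2.68 ± 0.20 SE, edgeR FDR 4.96e-11). The bHLH list had 20 members higher and 40 lower of 99, the homeobox list 21 and 40 of 119, and the WRKY list 10 and 22 of 69. Of YABBY and carpel or ovule genes, 8 of 28 tested members were called higher and 11 lower in M5, with a median log2 fold change of -0.88. CRABS CLAW (LITCHI005346.m1.gene), which acts in carpels and nectaries of Arabidopsis, had 458, 417 and 416 FPKM in the M5 libraries and 54.1, 58.3 and 56.3 FPKM in the M1 libraries (log2 fold change 3.26 ± 0.16 SE, edgeR FDR 5.77e-14), and YABBY 1 (LITCHI022829.m1.gene) had 13.6, 13 and 10.9 FPKM in the M5 libraries and 63.5, 66.5 and 64.8 FPKM in the M1 libraries (log2 fold change -2.05 ± 0.18 SE, edgeR FDR 7.95e-10). CRABS CLAW reached its highest mean at M4, with 56.2, 94.8, 342, 679 and 430.3 FPKM in M1 to M5.

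Of the 96 listed MADS-box genes, 95 were in the table, 18 of these had no count in any library, and 43 were tested. In M5, 11 were called higher and 10 lower, with a median log2 fold change of 0.00, and with library-size scaling 9 were higher and 12 lower. Most stamen identity genes of the B and C classes stayed abundant at full bloom. The B class genes LcMADS75 and LcMADS50 had their highest means at M4 (380 and 347 FPKM), above those at M5. LcMADS65 (AGAMOUS, LITCHI028933.m1.gene), a C class gene, had 219, 221 and 212 FPKM in the M5 libraries and 30.2, 28.6 and 30.1 FPKM in the M1 libraries (log2 fold change 3.20 ± 0.14 SE, edgeR FDR 5.46e-15). LcMADS75 (DEFICIENS, LITCHI006530.m1.gene), a B class gene, had 207, 216 and 202 FPKM in the M5 libraries and 60.1, 55.1 and 61.6 FPKM in the M1 libraries (log2 fold change 2.15 ± 0.14 SE, edgeR FDR 2.93e-12). LcMADS45 (LITCHI010203.m1.gene) carries the same annotation but was lower, with 1.12, 0.965 and 1.52 FPKM in the M5 libraries and 40.5, 43.4 and 43 FPKM in the M1 libraries (log2 fold change -4.79 ± 0.23 SE, edgeR FDR 4.17e-14). LcMADS50 (PMADS 2, LITCHI011302.m1.gene), the B class partner, was not called at 188 ± 9.76 FPKM in M5 and 185 ± 1.82 FPKM in M1 (SD, n = 3 each, log2 fold change 0.35 ± 0.14 SE, edgeR FDR 0.0374). The 2 genes annotated as DEFICIENS thus changed in opposite directions.

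Of MIKC* genes, which act in pollen of Arabidopsis, 4 of 6 tested members were called higher and 1 lower. The member called lower, LcMADS74, is annotated in the table as a chlorophyll a-b binding protein. LcMADS46 and LcMADS47 (LITCHI010419.m1.gene and LITCHI010424.m1.gene), both annotated as AGL104, a regulator of pollen maturation in Arabidopsis, had 4.41, 3.54 and 5.72 and 4.63, 4 and 6.24 FPKM in M5, against 0.371, 0.535 and 0.282 and 0.175, 0.297 and 0.222 FPKM in M1. Their log2 fold changes were 3.82 ± 0.85 (SE, edgeR FDR 0.000653) and 4.71 ± 0.47 (SE, edgeR FDR 6.61e-09). LcMADS46 was at 0.396, 0, 0.0382, 3.5 and 4.55 FPKM in M1 to M5, so the size of its change also depends on the starting stage. At 0.611 CPM in M1 it was under the 1 CPM limit of the set of genes higher in M1 than in M2. LcMADS93 (AGL30, LITCHI005193.m1.gene) averaged 5.48 ± 0.832 FPKM in M5 and 2.05 ± 0.179 FPKM in M1 (SD, n = 3 each, log2 fold change 1.74 ± 0.20 SE, edgeR FDR 5.58e-08). All of these levels were far below those of the abundant B and C class genes.

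Among E class genes, LcMADS100 (SEPALLATA 2, LITCHI019333.m4.gene), 1 of 2 entries of its locus, had 281, 401 and 293 FPKM in the M5 libraries and 102, 102 and 98.3 FPKM in the M1 libraries (log2 fold change 2.02 ± 0.20 SE, edgeR FDR 6.97e-09), or 2.04 with the entries summed, and LcMADS94 (EJ2, LITCHI005351.m1.gene) averaged 4.44 ± 0.614 FPKM in M5 and 26.3 ± 1.05 FPKM in M1 (SD, n = 3 each, log2 fold change -2.24 ± 0.24 SE, edgeR FDR 2.7e-08). LcMADS91 (AGL9 homolog, LITCHI004634.m1.gene) averaged 133 ± 6.87 FPKM in M5 and 167 ± 4.2 FPKM in M1 (SD, n = 3 each) and LcMADS73 (EJ2, LITCHI023328.m1.gene) 46.1 ± 4.25 FPKM in M5 and 85 ± 2.92 FPKM in M1 (SD, n = 3 each), with log2 fold changes of 0.00 ± 0.09 (SE, edgeR FDR 0.982) and -0.55 ± 0.10 (SE, edgeR FDR 6.84e-05), and neither was called. The AGL6 gene LcMADS9 (LITCHI025595.m1.gene) had overlapping FPKM values (97.5, 101 and 94.2 FPKM in the M5 libraries and 89.4, 101 and 105 FPKM in the M1 libraries) and was not called (log2 fold change 0.31 ± 0.17 SE, edgeR FDR 0.122). In the AP1/FUL subfamily, LcMADS72 (AGL8, LITCHI023327.m1.gene) had 2.92, 2.48 and 2.67 FPKM in the M5 libraries and 17.9, 17.7 and 17.2 FPKM in the M1 libraries (log2 fold change -2.38 ± 0.07 SE, edgeR FDR 1.04e-16). The A class gene LcMADS95 (APETALA 1, LITCHI005352.m1.gene) averaged 52.6 ± 3.8 FPKM in M5 and 112 ± 5.59 FPKM in M1 (SD, n = 3 each) and was not called (log2 fold change -0.76 ± 0.11 SE, edgeR FDR 2.76e-06). LcMADS72 and LcMADS95 were below their M1 level in M5, and LcMADS95 was called lower with library-size scaling (-1.10). The remaining tested gene of this subfamily, LcMADS101, was near the floor (0.159 FPKM in M5) and was not called (log2 fold change 2.08, edgeR FDR 0.17).

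Genes of the ovule and seed coat classes were low in male flowers at full bloom. LcMADS51 (AGL11, LITCHI011705.m1.gene) had 0.447, 0.175 and 0.544 FPKM in the M5 libraries and 0.856, 1.28 and 1.01 FPKM in the M1 libraries. Its change (log2 fold change -1.09 ± 0.29 SE, edgeR FDR 0.00248) was not called without M1 replicate 2 (-0.87, FDR 0.0229) or without M5 replicate 2 (-0.71, FDR 0.0229). LcMADS11 (AGL1, LITCHI026995.m1.gene) averaged 3.73 ± 0.735 FPKM in M5 and 9.11 ± 0.657 FPKM in M1 (SD, n = 3 each), was not called at -0.96 ± 0.14 (SE, edgeR FDR 2.06e-06), and passed the limit with library-size scaling (-1.30) and without M5 replicate 2 (-1.02). Its means were 9.11, 12.8, 17.2, 9.29 and 3.73 FPKM in M1 to M5 and 8, 16.2, 20.3, 16 and 14.7 FPKM in F1 to F5. LcMADS96 (TRANSPARENT TESTA 16, LITCHI006184.m1.gene) averaged 0.111 ± 0.0969 FPKM in M5 and 0.517 ± 0.2 FPKM in M1 (SD, n = 3 each), and its change of -1.89 ± 0.60 (SE, edgeR FDR 0.00832) was not called without M1 replicate 1 or 2 (FDR 0.0322 and 0.0335), without M5 replicate 2 or 3 (FDR 0.0103 and 0.0251), with RLE scaling (FDR 0.0107), without a filter (FDR 0.012) or with a stricter filter (FDR 0.0100047). Of other classes, LcMADS42 (AGL18, LITCHI008820.m1.gene) averaged 12.6 ± 0.913 FPKM in M5 and 4.11 ± 0.862 FPKM in M1 (SD, n = 3 each, log2 fold change 1.94 ± 0.19 SE, edgeR FDR 6.34e-09). LcMADS85 (LITCHI020322.m1.gene) averaged 1.43 ± 0.234 FPKM in M5 and 0.845 ± 0.303 FPKM in M1 (SD, n = 3 each), and its change of 1.08 ± 0.24 (SE, edgeR FDR 0.000441) was under the 2-fold limit with library-size scaling (0.74), without M1 replicate 1 (0.93) and without M5 replicate 3 (0.98), and turned sign against M2 (-0.13). Of type I genes, LcMADS67 (AGL62, LITCHI029895.m1.gene) averaged 1.56 ± 0.288 FPKM in M5 and 6.13 ± 0.388 FPKM in M1 (SD, n = 3 each, log2 fold change -1.63 ± 0.34 SE, edgeR FDR 0.000208) and LcMADS12 (AGL80, LITCHI027164.m1.gene) averaged 2.99 ± 0.317 FPKM in M5 and 5.57 ± 0.511 FPKM in M1 (SD, n = 3 each) and was not called (log2 fold change -0.56 ± 0.62 SE, edgeR FDR 0.447). The other called genes were LcMADS32, LcMADS36 and LcMADS37, all higher, and LcMADS43, LcMADS48, LcMADS71 and LcMADS74, all lower. Several of these calls rest on low levels. LcMADS32, LcMADS36 and LcMADS37 averaged 0.557, 0.641 and 0.412 FPKM in M5. LcMADS43 had 4.5, 0.188 and 0.136 FPKM in the M1 libraries, so its call leans on M1 replicate 1. The M5 and M1 libraries of LcMADS48 overlapped.

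By the KEGG pathways given in the table, 5443 tested genes had a pathway, of which 16.9% were called higher and 17.3% lower. Among the 106 pathways with at least 20 tested genes, the highest share called higher was in biosynthesis of unsaturated fatty acids, with 15 of 28 genes higher, and 12 higher with library-size scaling. Carotenoid biosynthesis followed with 26 of 52 higher and 6 lower, and pentose and glucuronate interconversions, which holds the pectin enzymes, with 46 of 94 higher and 11 lower. Oxidative phosphorylation had 31 of 102 higher and 3 lower, against 13 and 5 with library-size scaling. The highest share called lower was in photosynthesis, with 25 of 40 genes lower and 3 higher. DNA replication had 32 of 58 lower and 1 higher, flavonoid biosynthesis 20 of 46 lower and 7 higher, and sesquiterpenoid and triterpenoid biosynthesis 18 of 42 lower and 9 higher. Base excision repair had 21 of 52 lower and 4 higher, and mismatch repair 16 of 43 lower and 1 higher. Pathways share genes, so their counts are not independent.

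The largest step most often lay between the closed bud and the partly open flower. As a description of group means with no test, 3240 (76.0%) of the genes called higher had their highest mean at M5 and 849 at M4. The largest of the 4 upward steps lay between M3 and M4 for 2344 (55.0%) and between M4 and M5 for 967 (22.7%), and for 1153 genes (27.0%) each stage had a higher mean than the one before. Of the genes called lower, 3464 (57.9%) had their highest mean at M1, 1594 at M2 and 845 at M3, and 4947 (82.7%) had their lowest at M5. Their largest downward step lay between M3 and M4 for 3485 (58.3%), and for 2108 (35.3%) each stage had a lower mean than the one before. NEC1 (LITCHI003451.m1.gene) shows the late course of many genes called higher, with 0, 0.179, 5.02, 654 and 1567 FPKM in M1 to M5. Expansin-A8 was highest at M4, with 2.92, 9.22, 99.1, 381 and 267 FPKM.

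The same course in female flowers was used to ask which changes differ with flower sex, by testing the male change minus the female change in the fit of all 30 libraries. The difference was called for 6284 genes (22.6%), with 2185 more positive in male and 4099 more positive in female flowers, and with library-size scaling these were 1109 and 6086. Fewer genes were called over the female course, 4109 (14.8%) in either direction and 2037 (7.31%) lower in F5, against 36.8% and 21.5% over the male course. Of the genes called higher in M5, 1502 were also called higher in F5 against F1, and 1441 of those called lower were also called lower there. The male change was more positive than the female change for 1700 of the 4264 genes called higher, and the female change was more positive for 3573 of the 5979 called lower. Opposite calls were found for 33 genes higher in male and lower in female flowers and for 88 lower in male and higher in female flowers. The difference was called for each of these, which opposite calls in the same fit nearly fix. The change from M1 to M5 is part of both the call and the difference, so counts of differences among called genes are not independent of the calls.

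Among the lists of cell division and photosynthesis, the called differences were mostly more negative in male flowers, to be read against 14.7% of all tested genes with such a difference. Of DNA replication genes, 24 of 44 were lower in M5 against M1, and the male change was more negative than the female change for 24 of the 44. Of kinesins and spindle proteins, 64 were lower in M5 and 5 in F5, with a difference called more positive in female flowers for 50 of 115. Of light-harvesting and photosystem genes, 38 were lower in M5 and 6 in F5, with 31 of 54 more positive in female flowers. CDKB2-2 changed by -3.65 ± 0.18 in male and by -0.75 ± 0.16 in female flowers, a difference of -2.90 ± 0.23 (SE, edgeR FDR 1.19e-09). LcMADS51 changed by -1.09 ± 0.29 in male and by 3.22 ± 0.29 in female flowers, and the difference was -4.31 ± 0.41 (SE, edgeR FDR 1.73e-08). LcMADS50 changed by 0.35 ± 0.14 in male and by -1.65 ± 0.15 in female flowers, a difference of 2.00 ± 0.20 (SE, edgeR FDR 4.39e-08).

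Several of the most abundant genes at full bloom did not pass the test of a difference between the sexes. NEC1 (LITCHI003451.m1.gene), Beta-glucosidase 13 and CWINV1 were called higher in both sexes. The male minus female difference was 6.23 ± 3.83 (SE, edgeR FDR 0.198) for NEC1, 2.61 ± 1.54 (SE, edgeR FDR 0.18) for Beta-glucosidase 13 and -0.16 ± 1.75 (SE, edgeR FDR 0.972) for CWINV1, and none was called. Their wide errors leave the size of the differences uncertain, and the F1 and M1 levels are near 0. At full bloom NEC1 averaged 1567 FPKM in M5 and 485 FPKM in F5, and Beta-glucosidase 13 3223 FPKM in M5 and 1042 FPKM in F5. CWINV1 had 0.0285, 0.0632, 2.7, 124 and 129 FPKM in F1 to F5, where both the F5 and the F1 mean lay below those of M5 and M1. In male flowers CWINV1 averaged 0.774 FPKM in M1, 0.0763 FPKM in M2 and 2278 FPKM in M5. Its male change, and with it the difference between the sexes, thus depends on the stage taken as the start and does not show an equal rise in both sexes. LAT52 was at 6.13, 0.093, 3.77, 51.1 and 62.7 FPKM in F1 to F5, and its difference of 0.66 ± 0.57 (SE, edgeR FDR 0.372) was not called. Differences more positive in male flowers were called for CBL-interacting protein kinase 2 (4.07 ± 0.38 (SE, edgeR FDR 1.4e-08)), Expansin-A8 (3.88 ± 0.61 (SE, edgeR FDR 1.77e-05)) and fasciclin-like protein 6 (3.39 ± 0.38 (SE, edgeR FDR 1.51e-07)).

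**Figure D5:**
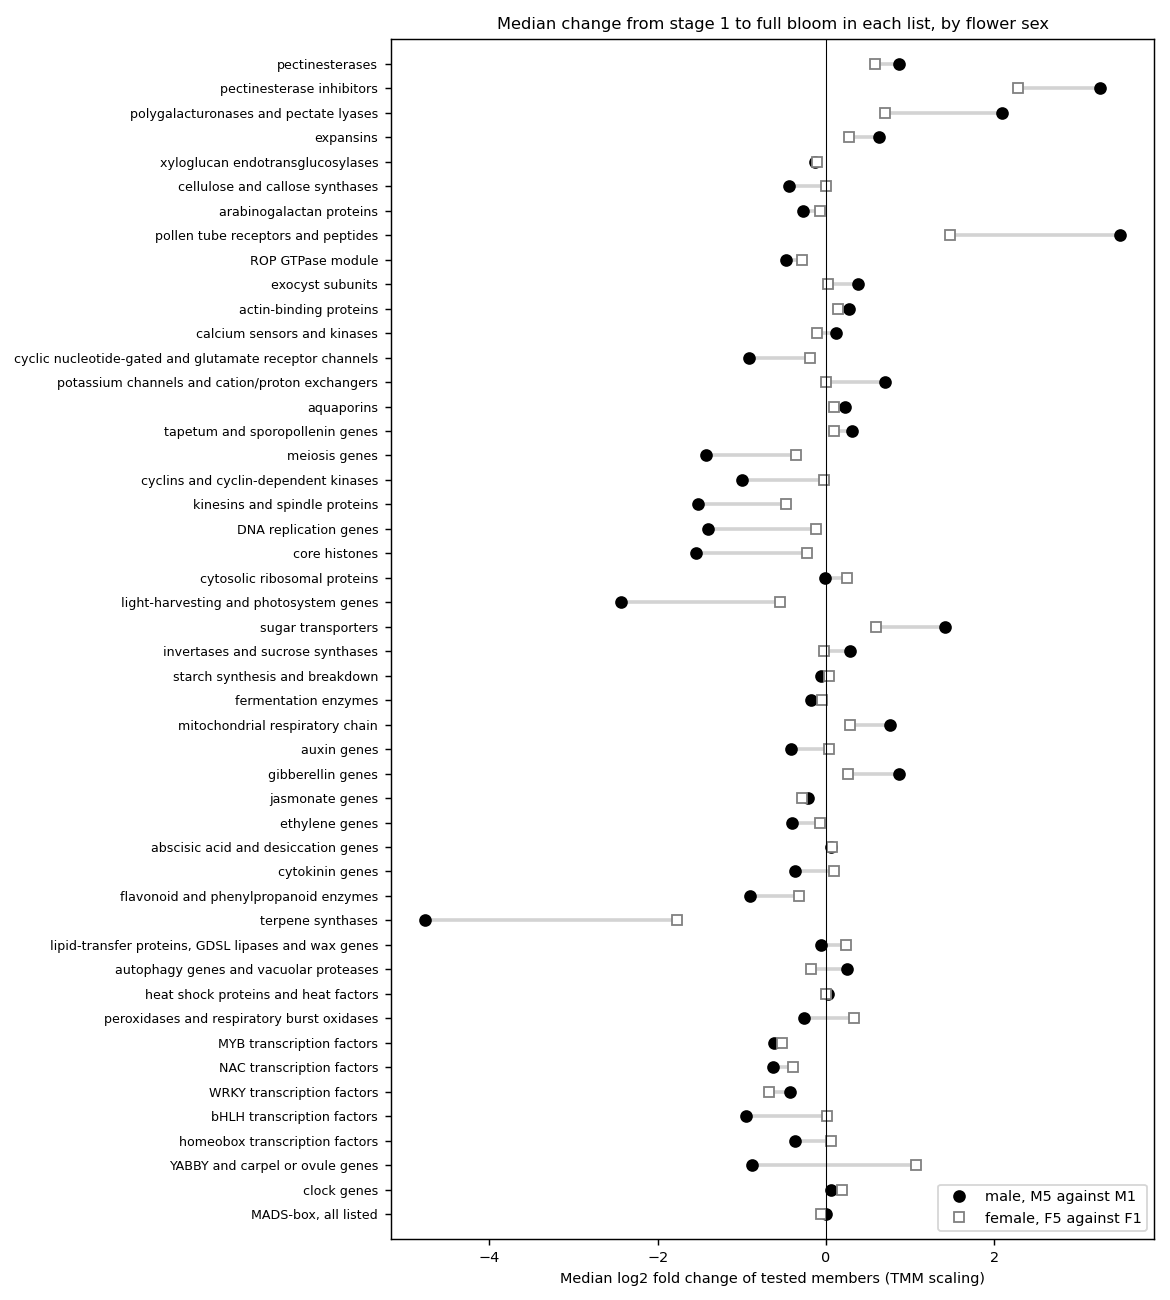
Median log2 fold change from stage 1 to full bloom over the tested members of each list, in male flowers (M5 against M1, black circles) and female flowers (F5 against F1, open squares), under TMM scaling. The male medians run from -4.76 for terpene synthases to 3.49 for pollen tube receptors and peptides, and the female medians of these lists are -1.77 and 1.47.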

How the data were processed

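RNA was sequenced from whole flowers, with 3 libraries in each of 10 groups. Per the submitters' processing notes HISAT2 2.0.4 and StringTie were used, and the study's methods name Trimmomatic, removal of ribosomal RNA reads and Cufflinks. The genome build, the counting tool and how reads shared by similar copies or by entries of a locus were counted are not given in the sources used here. The authors deposited raw counts and FPKM values per gene and library. They also deposited adjusted p-values and log2 fold changes of their own DESeq2 comparisons, which were not used.

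Counts were fitted with edgeR 4.0.16 (quasi-likelihood test, limma 3.58.1) in R 4.3.3, with all 30 libraries in 1 model with TMM factors. The default filter on low counts kept 27854 of 37234 genes (9380 removed, 3835 of them without a count in any library). Common dispersion corresponded to a coefficient of variation of 0.352. A call needs a Benjamini-Hochberg FDR under 0.01 over all tested genes and at least a 2-fold change. The SE of a log2 change is its size divided by the square root of the F value. It is thus derived from the test, is not a standard error estimated by the fit, and is rough for genes near 0. Of the tested genes 20641 carried a Swiss-Prot annotation, from which the 47 lists were drawn by text matching. FPKM values served as levels. Between 27433038 and 36428418 counts stood behind each M5 and M1 library. For a group with no count, a limit of 3 counts over the group gives an "at least" fold.

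The genes named are the 6 annotated genes with the largest fitted change in each direction (at least 10 CPM, sole entry of a locus, no overlap), the 6 most abundant called in each direction, the most abundant called member in each direction of 29 lists, LcActin, and the MADS-box genes the study discusses. The other 18 lists are given by counts. The members, lists and rules were chosen with earlier results of these data known. Alternatives were library-size and RLE scaling, DESeq2 1.42.0, other filters, only the groups compared, summed entries of a locus, a replicate block, each library left out in turn and, added later, stage 2 as the start. The steps were run on simulated data in which only few genes changed, so that this run does not bear on the choice of scaling.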

Additional observations from a re-analysis of the deposited data

Results flagged for a closer look

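For 56 of the genes whose values are given above, the change from stage 1 to full bloom differed between male and female flowers by the interaction test across all 30 libraries. The test was edgeR's quasi-likelihood test on the male minus the female log2 change, with calls at an FDR under 0.01 and a difference of at least 2-fold. Explanations were not weighed.

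Among the most abundant genes of open male flowers, the difference was 1.95 for UDP-glucose 6-dehydrogenase 1, 1.88 for Polyubiquitin 10 and 1.58 for Salicylate carboxymethyltransferase, all more positive in male flowers. Other wall, transport and signalling genes with a more positive male change were CBL-interacting protein kinase 2 (4.07), Expansin-A8 (3.88), fasciclin-like protein 6 (3.39), SWEET1 (2.09) and Pectinesterase inhibitor 9 (1.59). The same held for STRICTOSIDINE SYNTHASE-LIKE 10 (2.69), KINESIN LIGHT CHAIN-RELATED 1 (1.42), the lipid-transfer protein LITCHI018043.m1.gene (2.46), the anthocyanidin reductase (2.81) and the limonene synthase (2.00). Hormone genes on this side were AUX28 (2.01), 12-oxophytodienoate reductase 2 (1.83), ACC oxidase homolog 3 (1.41) and GH3.1 (1.65), the last of which was called lower in both sexes. Transcription factors on this side were NAC100 (2.46) and CRABS CLAW (1.47).

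More negative in male flowers were the changes of an alpha-farnesene synthase (LITCHI029161.m1.gene, -10.28) and RICE SALT SENSITIVE 3 (-9.05). Both had no count in M5, so that the size of these fitted values is no bound. Glutaredoxin-C8 (-4.48), alpha-copaene synthase (-7.12) and Glucan endo-1,3-beta-glucosidase 13 (-5.41) were on the same side. So were the wall genes XTH9 (-4.35), Pectinesterase 68 (-3.44), Expansin-A2 (-2.74), Pectinesterase inhibitor 3 (-2.14), Pectate lyase 13 (-1.58) and fasciclin-like protein 17 (-1.35). Genes of cell division and meiosis on this side were CDKB2-2 (-2.90), Histone H2A.6 (-2.60), Replication factor C subunit 4 (-2.59), MAP65-1 (-2.53) and Meiotic nuclear division protein 1 (-2.28). The remaining enzymes, channels and regulators were Chalcone synthase 2 (-2.75), NCED1 (-2.01), PIP2-7 (-1.45), the pEARLI1-like protein (-1.44), ERF4 (-2.50), MYB77 (-3.60), NAC83 (-1.02) and YABBY 1 (-2.41).

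Among MADS-box genes, the male change was more positive for LcMADS9 (2.39), LcMADS65 (2.18), LcMADS50 (2.00), LcMADS93 (1.79), LcMADS42 (1.40), LcMADS85 (1.27) and LcMADS75 (1.13). It was more negative for LcMADS51 (-4.31), LcMADS96 (-4.03), LcMADS45 (-3.83), LcMADS72 (-2.18), LcMADS11 (-1.75) and LcMADS94 (-1.22). LcMADS51 and LcMADS96 were called lower in male and higher in female flowers.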

How the results depend on the processing

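The 4 counts of called genes (all, higher, lower, and those with a male minus female difference) stayed within 1.5 times under each alternative run. Leaving out each of the 6 libraries in turn gave 9687 to 9996 genes called, 4148 to 4424 higher, 5492 to 5645 lower and 5795 to 6226 with a difference between the sexes. With the replicate number as a block, 10134 genes were called and 6175 differences. Same-numbered M5 and M1 libraries did not deviate together across all tested genes (r = 0.03, -0.00 and 0.02). Count noise weighs on these values, so they cannot show whether the numbers pair the samples, and the labels do not say. DESeq2 called 10766 genes, with 4822 higher. An alternative with stage 2 in place of stage 1, chosen after seeing the data, called 10278 genes, 3507 higher and 5344 lower in common with the calls against M1 (86.4%).

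Of 1410 values for 94 genes under 15 alternatives, 1382 kept their direction and side of the threshold, 18 lost a call, 4 gained one and 6 turned sign. Of those that turned sign, LcMADS85 was a call against M1 and the others were not. With library-size scaling LcMADS9 was at -0.0263 and LcMADS91 at -0.34. Against M2, LcMADS91 was at -0.29, LcMADS85 at -0.13 and LcMADS50 at -0.0154, and with single libraries left out LcMADS91 ranged from -0.0186 to 0.0761, the lowest without M5 replicate 2. The cause was not tested. With only the groups compared, LcMADS51, LcMADS85 and LcMADS96 were not called.

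Library-size scaling moved 13 of 96 list counts by over 1.5 times: tapetum genes to 4 higher and 8 lower, respiratory chain to 8 higher and 1 lower, exocyst 6 higher, actin-binding 8 higher, cyclic nucleotide-gated channels 6 higher, cellulose synthases 17 lower, ribosomal proteins 1 higher and 16 lower, autophagy 14 lower, heat shock 23 lower and clock genes 7 lower. Against M2 the tapetum list had 1 higher and 21 lower, the YABBY list 5 higher, ribosomal proteins 3 higher and invertases 5 lower. With only the groups compared, YABBY had 7 lower and MADS-box genes 6 lower. Cyclins had 5 higher without M5 replicate 2, by DESeq2, and with entries of a locus summed.

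Depth limits the genes near 0, and the limit of 3 counts over a group covers counting error only. Replicates are 3 a group, and their independence is not given in the sources used here.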
